A study of Bos taurus with 31 samples.

Results

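The genes for the subunits of the AMP-activated protein kinase (AMPK) and for its main upstream kinase were examined in the liver transcriptome of dairy cows. They were chosen by symbol: PRKAA1, PRKAA2, PRKAB1, PRKAB2, PRKAG1, PRKAG2 and STK11. All 7 symbols were found once each among the 24616 genes of the count table, and all 7 passed the filter on low counts, a sum of at least 20 reads, which left 15916 genes to test. Liver biopsies came from 31 lactating German Holstein cows at the end of a feeding trial, and each cow gave 1 poly(A) RNA library. The cows received rations with a high (HC) or a low (LC) concentrate feed proportion (CFP), and the rations were either contaminated with glyphosate residues (GLY), from crops sprayed before harvest with the formulation Roundup Record, or served as control (CON). The 4 groups were CONHC (8 cows), CONLC (8 cows), GLYHC (8 cows) and GLYLC (7 cows, since the samples of 1 cow were lost). The control rations were not free of glyphosate but held a minimal background of it. In the GLY groups the residues came from a formulated product that also contained a surfactant, so the groups do not separate glyphosate from the rest of the formulation.

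AMPK is the energy sensor of the cell. It is a complex of a catalytic alpha, a scaffolding beta and a nucleotide-binding gamma subunit, each encoded by paralogous genes. When AMP rises relative to ATP, the gamma subunit binds it and the alpha subunit is kept phosphorylated by the upstream kinase LKB1, the product of STK11. In the liver, active AMPK is known for slowing fatty acid, cholesterol and glucose production and for favouring fatty acid oxidation and autophagy. This control is exerted largely through phosphorylation and nucleotide binding, neither of which an mRNA level measures.

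Libraries held from 11675775 to 36675542 gene reads, and the group medians were 15639368 in CONHC and from 20722019 to 22532846 elsewhere. The tissue label was checked against hepatocyte markers, all 8 of which were found and which summed to between 106255 and 214160 counts per 1000000 reads (CPM) in each cow. Skeletal muscle markers summed to between 1688 and 3882 CPM in 4 cows (CONHC cow 123, CONLC cows 103 and 166, GLYHC cow 127) and to between 1.08 and 448 CPM in the other 27. Intestinal epithelium markers summed to 319 CPM in GLYLC cow 912 and to at most 1.79 CPM in each CON and GLYHC cow. Stellate cell and smooth muscle markers (5 of 5 found) summed to between 116 and 182 CPM in 7 of the 8 GLYHC cows and to 265 CPM in cow 127, against 185 to 338 CPM in 6 GLYLC cows and 1582 CPM in cow 912. Cow 127 is also 1 of the 4 cows with high skeletal muscle markers. In GLYHC the marker DES, 1 of these 5, had a median of 13.6 CPM and reached 161 CPM. The part of skeletal muscle RNA in these sums was not tested. Of the stellate cell and smooth muscle markers DCN did not overlap between GLYHC (43.1 to 71.8 CPM) and GLYLC (75.9 to 127.0 CPM). The ranges of DES, ACTA2, TAGLN and MYH11 did overlap between these groups. Of all tested genes 0.0942% had no overlap there. The part of stellate and smooth muscle cells in the values for GLYHC minus GLYLC and HC minus LC was not tested. Markers of macrophages, lymphocytes and endothelium overlapped in their summed level between all 4 groups. The median of the macrophage sum was 663 CPM in CONHC and 697 in GLYHC, against 570 in CONLC and 545 in GLYLC. The part of macrophages in the HC minus LC values was not tested. CPM values are given after TMM scaling, which corrects library size for a few very abundant transcripts, and a gene was called changed at an unadjusted p under 0.05 together with a Benjamini-Hochberg adjusted p under 0.1 over all 15916 genes (edgeR quasi-likelihood test). CPM is not divided by transcript length, so levels were not ranked between genes.

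No gene of the AMPK complex changed with diet or glyphosate residues by this test. The number called was 0 of 7 in each of the 4 comparisons of groups, in the interaction of GLY and CFP, and in the comparisons of all HC with all LC cows and of all GLY with all CON cows. DESeq2 on the same counts also called 0 of 7 in each of them. At an unadjusted p under 0.05 the count was 1 of 7 for HC against LC over all cows (PRKAA1) and 0 of 7 in the other 6 comparisons. In every one of the 4 comparisons of groups, the cows of both groups overlapped in CPM for all 7 genes. In bulk tissue, fewer cells of a type and less RNA per cell cannot be told apart, and this holds for each value that follows.

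The background over all genes was low as well. For HC against LC over all cows 1.45% of the tested genes were called and 13.7% had an unadjusted p under 0.05. Between GLYHC and GLYLC 0.201% were called (12.5% at the unadjusted threshold), and between CONHC and CONLC 0% (5.96%). For the residues, 0% of genes were called between GLYHC and CONHC (2.92%), 0.0628% between GLYLC and CONLC (5.65%), 0% for GLY against CON over all cows (3.92%) and 0% for the interaction (4.21%). Groups without any overlap in CPM were found for 0.0188% of genes between CONHC and CONLC, 0.0942% between GLYHC and GLYLC, and 0.00628% in each of the GLY against CON comparisons. The count of 0 of 7 called genes is near these shares. Counts of cows above or below those of another group are given below for single genes. No share over all genes was computed for such counts.

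**Figure D1:**
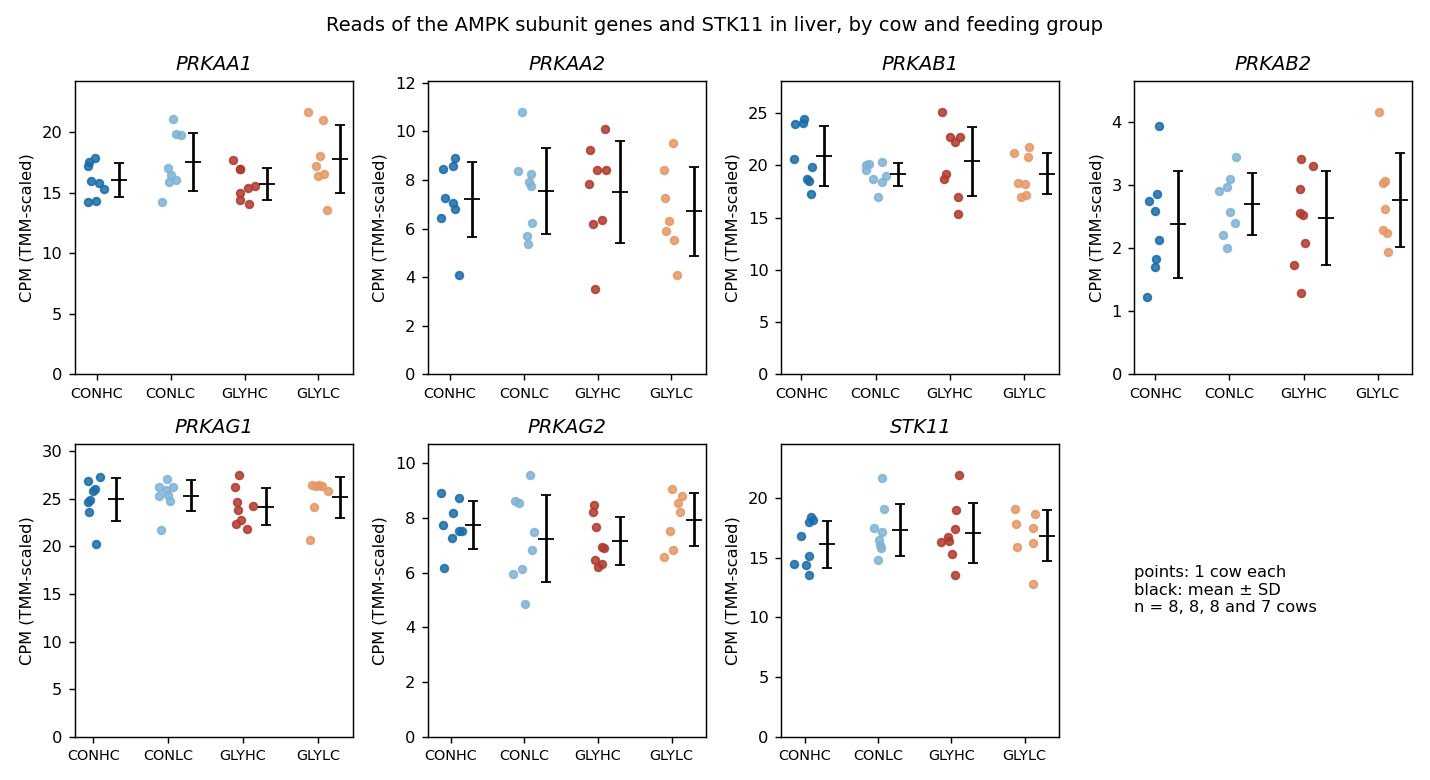
Level of each gene in CPM (vertical axes, starting at 0) by feeding group, with 1 point per cow and black bars for mean ± SD (n = 8, 8, 8 and 7 cows). The groups overlap in every panel, and the highest PRKAA1 values, up to 21.7 CPM, are in LC cows.

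STK11 encodes LKB1, the kinase that phosphorylates the activation loop of the alpha subunit. Its level ranged in CONHC from 13.6 to 18.4 CPM with a median of 16.0, and in CONLC from 14.8 to 21.7 CPM with a median of 16.8. In GLYHC it ranged from 13.5 to 21.9 CPM with a median of 16.6, and in GLYLC from 12.8 to 19.1 CPM with a median of 17.5. The cow with the most and the cow with the least STK11 were both fed GLY rations, 1 in each CFP group. Over all cows the log2 fold change was -0.05 for HC minus LC (95% interval -0.19 to 0.09) and 0.02 for GLY minus CON (-0.12 to 0.16). Differences in STK11 larger than 0.19 on the log2 scale in either direction therefore lay outside both intervals.

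PRKAA1, for the alpha1 catalytic subunit, was the gene with the lowest p of the 7. Its level was between 14.2 and 17.9 CPM in CONHC (median 15.9) and between 14.2 and 21.1 CPM in CONLC (median 16.8). In the cows fed GLY rations it was between 14.1 and 17.7 CPM in GLYHC (median 15.5) and between 13.6 and 21.7 CPM in GLYLC (median 17.2). The lower ends of the ranges were alike and the upper ends were not: 6 of the 15 LC cows, 3 in each treatment, lay above all 16 HC cows, while the lowest value of all also belonged to an LC cow. Of the HC cows, 12 of 16 were below the LC median. The spread was wider on the LC side as well, with 15.9 ± 1.33 CPM (SD, n = 16) in HC and 17.7 ± 2.50 CPM (SD, n = 15) in LC.

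Over all cows PRKAA1 had a log2 fold change of -0.15 for HC minus LC (SE 0.06, 95% interval -0.28 to -0.02), with an unadjusted p of 0.0219 and an adjusted p of 0.264 by edgeR, so it was not called. The difference was of similar size in both treatments, at -0.13 between CONHC and CONLC (-0.31 to 0.05) and -0.17 between GLYHC and GLYLC (-0.36 to 0.01), and the interaction was -0.04 (-0.30 to 0.22). For GLY minus CON over all cows the interval ran from -0.13 to 0.12, with 16.7 ± 2.31 CPM (SD, n = 15) in GLY and 16.8 ± 2.05 CPM (SD, n = 16) in CON. The 4 cows with over 1000 CPM of muscle markers had between 14.2 and 16.5 CPM of PRKAA1, and without these cows and cow 912 the HC minus LC value was -0.17 (adjusted p = 0.330, edgeR).

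PRKAA2 encodes alpha2, the other catalytic subunit. It varied more from cow to cow than PRKAA1, with a coefficient of variation of 24.2% against 12.8% over all cows. The range was 4.10 to 8.89 CPM in CONHC (median 7.16) and 5.35 to 10.8 CPM in CONLC (median 7.82). It was 3.50 to 10.1 CPM in GLYHC (median 8.12) and 4.09 to 9.51 CPM in GLYLC (median 6.32). The ranges overlapped widely, with the lowest cow in GLYHC and the highest in CONLC, and the order of the medians was opposite for HC and LC in the 2 treatments. The interaction was 0.23 on the log2 scale with an interval from -0.31 to 0.77 (adjusted p = 0.999, edgeR). Across all cows HC minus LC was 0.05 (-0.22 to 0.32) and GLY minus CON -0.05 (-0.31 to 0.22), so the intervals reached 0.32 in size.

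The beta subunits hold the complex together and bind glycogen. PRKAB1, for beta1, ranged from 17.2 to 24.4 CPM in CONHC (median 20.2) and from 17.0 to 20.4 CPM in CONLC (median 19.3). In GLYHC the range was 15.4 to 25.1 CPM (median 20.7) and in GLYLC 17.0 to 21.8 CPM (median 18.3). Here the upper end lay on the HC side: 7 of the 16 HC cows were above every LC cow, and the lowest value was also that of an HC cow. HC minus LC over all cows was 0.11 (-0.02 to 0.24, adjusted p = 0.482 by edgeR), with 0.13 under CON and 0.08 under GLY. For GLY minus CON the value was -0.02 (-0.15 to 0.11).

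PRKAB2, for beta2, had the fewest reads of the 7 genes, between 14 and 110 per cow. It ranged from 1.23 to 3.94 CPM in CONHC (median 2.36) and from 2.01 to 3.45 CPM in CONLC (median 2.74). In GLYHC it ranged from 1.29 to 3.42 CPM (median 2.54) and in GLYLC from 1.94 to 4.16 CPM (median 2.63). The lowest 5 values of the 31 were all in HC cows, although the ranges overlapped. HC minus LC was -0.16 over all cows with a wide interval (-0.45 to 0.13), and GLY minus CON was 0.04 (-0.25 to 0.33). Its intervals were the widest of the 7 genes.

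The gamma subunits carry the AMP and ATP binding sites. PRKAG1, for gamma1, was the steadiest of the genes: its coefficient of variation over all cows was 7.84%, and of the 500 tested genes nearest to it in mean level 93.8% had a larger spread within groups (median 0.206 against 0.120 for PRKAG1, as SD of log2 CPM). The range was 20.2 to 27.3 CPM in CONHC, 21.7 to 27.1 in CONLC, 21.8 to 27.5 in GLYHC and 20.7 to 26.4 in GLYLC, with the highest median, 26.3 CPM, in GLYLC. All groups covered nearly the same range. Its intervals were the narrowest of the 7, from -0.14 to 0.05 for HC minus LC and from -0.12 to 0.07 for GLY minus CON, both on the log2 scale.

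PRKAG2, for gamma2, ranged from 6.16 to 8.90 CPM in CONHC (median 7.64) and from 4.84 to 9.57 CPM in CONLC (median 7.17). It ranged from 6.23 to 8.48 CPM in GLYHC (median 6.93) and from 6.58 to 9.06 CPM in GLYLC (median 8.22). CONLC held both the lowest and the highest cow. Under GLY, 1 of 8 HC cows was above the LC median, and under CON 7 of 8 were. The interaction was -0.25 (-0.58 to 0.08), which did not pass the test (adjusted p = 0.999, edgeR), and HC minus LC over all cows was -0.02 (-0.19 to 0.14). The value for GLY minus CON was 0.0032 with an interval from -0.17 to 0.17.

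**Figure D2:**
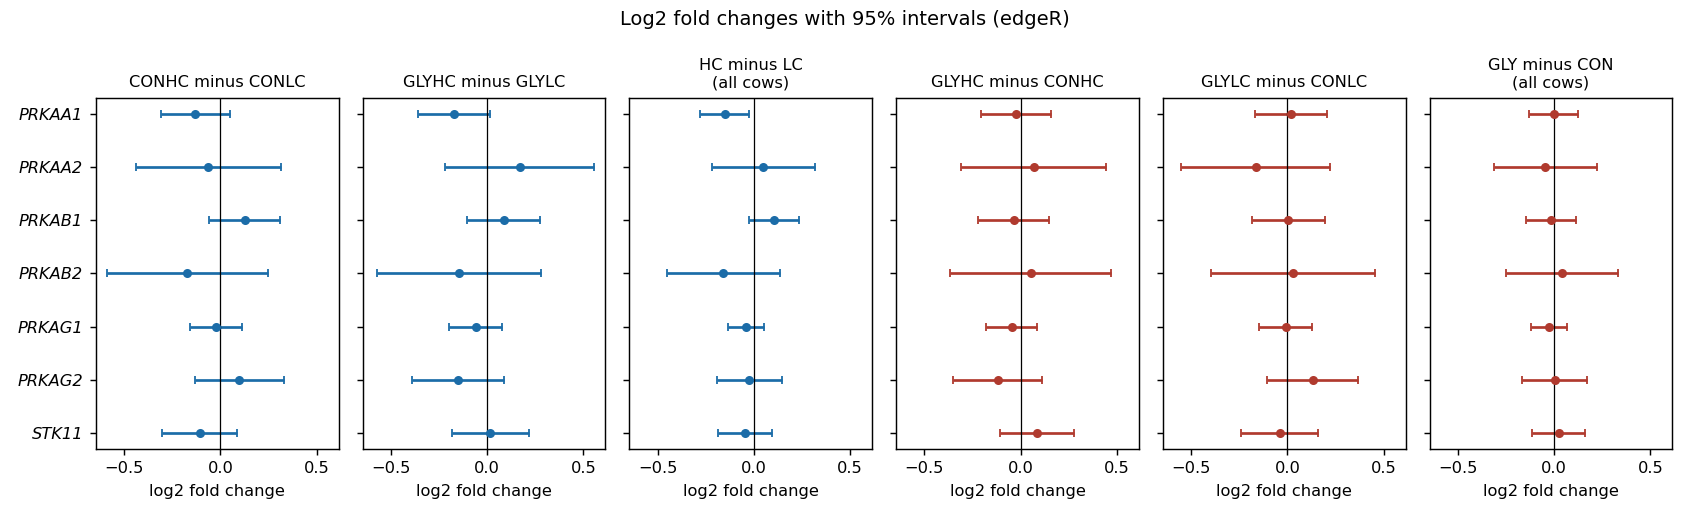
Log2 fold changes (points) with 95% intervals (bars) of the 7 genes in 6 comparisons by edgeR, for diet in blue and for glyphosate residues in red. The interval of PRKAA1 for HC minus LC over all cows, -0.28 to -0.02, is the only interval plotted that does not cross 0.

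The third gamma gene, PRKAG3, is expressed mainly in skeletal muscle. It had no read in 12 of the 31 cows and at most 50 reads, or 1.47 CPM, in any cow. GLYHC cow 127, which had those 50 reads, and CONLC cow 166, with 35, were among the 4 cows in which muscle markers exceeded 1000 CPM. For the 6 subunit genes and STK11 these 4 cows lay within the range of the other 27. PRKAA2 ranged there from 4.10 to 8.43 CPM against 3.50 to 10.8 CPM in the other 27, and PRKAG2 from 5.94 to 7.74 CPM against 4.84 to 9.57 CPM. The median of PRKAA1 was 14.8 CPM in the 4 cows against 17.0 CPM in the other 27. Medians of PRKAB2, PRKAG1 and STK11 were higher in the 4 cows, and those of PRKAA2, PRKAB1 and PRKAG2 lower. The part of muscle RNA in the levels of the 7 genes was not tested.

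The share of reads between the paralogs of a subunit was next compared within each library, where depth cancels. These are ratios of reads, not of molecules, since transcript lengths were not used. For PRKAA1 to PRKAA2 the ratio was between 1.52 and 4.21 with a median of 2.43 over all cows. For PRKAB1 to PRKAB2 it was between 4.37 and 19.5 (median 7.81), and for PRKAG1 to PRKAG2 between 2.52 and 5.60 (median 3.29). More reads were therefore assigned to the first paralog in each of the 31 cows for all 3 pairs. The largest group difference in the alpha ratio was between GLYHC and GLYLC, with mean log2 ratios of 1.13 ± 0.45 (SD, n = 8) and 1.44 ± 0.36 (SD, n = 7). In the beta ratio it was between CONHC and CONLC, at 3.21 ± 0.58 and 2.84 ± 0.28 (SD, n = 8 each). Each of the 12 group differences, 4 for each pair, was smaller than 1 pooled SD between cows. That SD is the spread of single cows and not the uncertainty of a difference between means, and the differences were not tested.

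**Figure D3:**
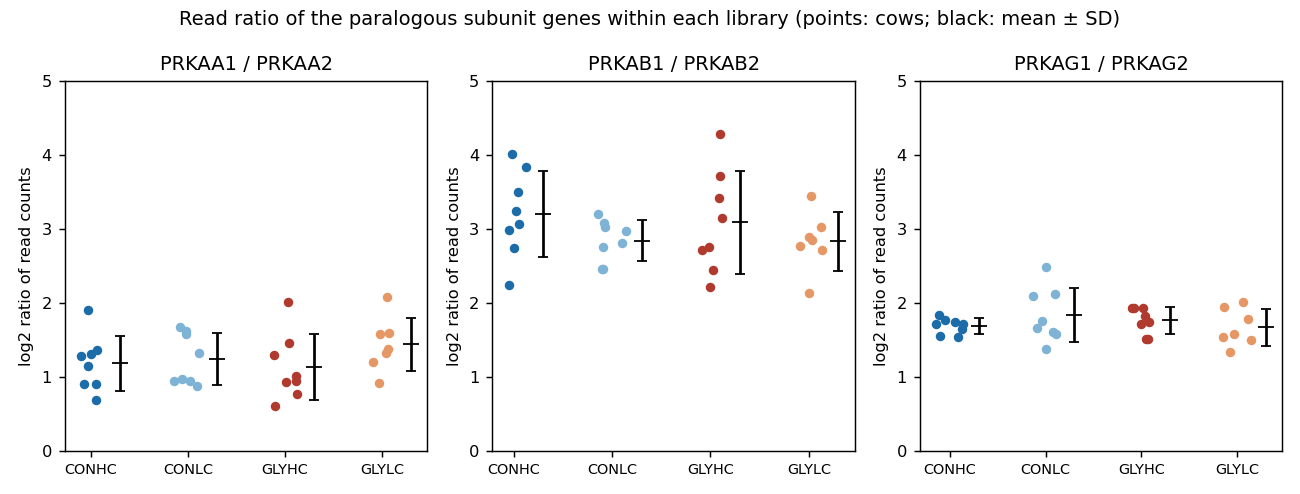
Log2 ratio of the reads of the paralogous subunit genes within each library (vertical axes) by feeding group, with 1 point per cow and black bars for mean ± SD. All points lie above 0, and the beta ratio spreads most, up to a ratio of 19.5.

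The genes were then compared from cow to cow within the groups, to see whether subunits of the same complex vary together. For this, log2 CPM was centred on the mean of each group, and Pearson and Spearman correlations over the 31 cows were computed for all 21 pairs, with p-values from 100000 permutations within groups adjusted over the 21 pairs. Only 1 pair passed an adjusted p of 0.05, and it was negative: STK11 and PRKAB2 had r = -0.74 and rho = -0.75, with a permutation p of 1e-05 for each, the smallest that these permutations can give, and an adjusted p of 0.00021. No pair of subunit genes passed, and r over the 21 pairs ran from -0.74 to 0.37 with a median of -0.06. Among the subunit pairs, r was 0.37 for PRKAA2 with PRKAB2, 0.30 for PRKAA1 with PRKAA2 and -0.37 for PRKAA2 with PRKAG1.

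The relation of STK11 and PRKAB2 was seen at both ends of the range. GLYHC cow 117 had the highest STK11 level, 21.9 CPM, and 1.29 CPM of PRKAB2, and GLYLC cow 102 had the lowest STK11 level, 12.8 CPM, and the highest of PRKAB2, 4.16 CPM. Without the 2 cows farthest from the median of PRKAB2, r was -0.69. It was -0.73 within CON, -0.76 within GLY, -0.74 within HC and -0.79 within LC, and -0.76 over the 26 cows left without the cows with muscle or intestinal markers. With a linear term for total reads it was -0.77. Few genes had a lower r with either gene: 0.0346% of the genes with a mean of at least 5 CPM for PRKAB2 and 0.173% for STK11. STK11 also had negative values with PRKAA2 (r = -0.49, rho = -0.37) and with PRKAG2 (r = -0.47, rho = -0.41), which did not pass after adjustment of the permutation p (adjusted p = 0.0683 for r in both).

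**Figure D4:**
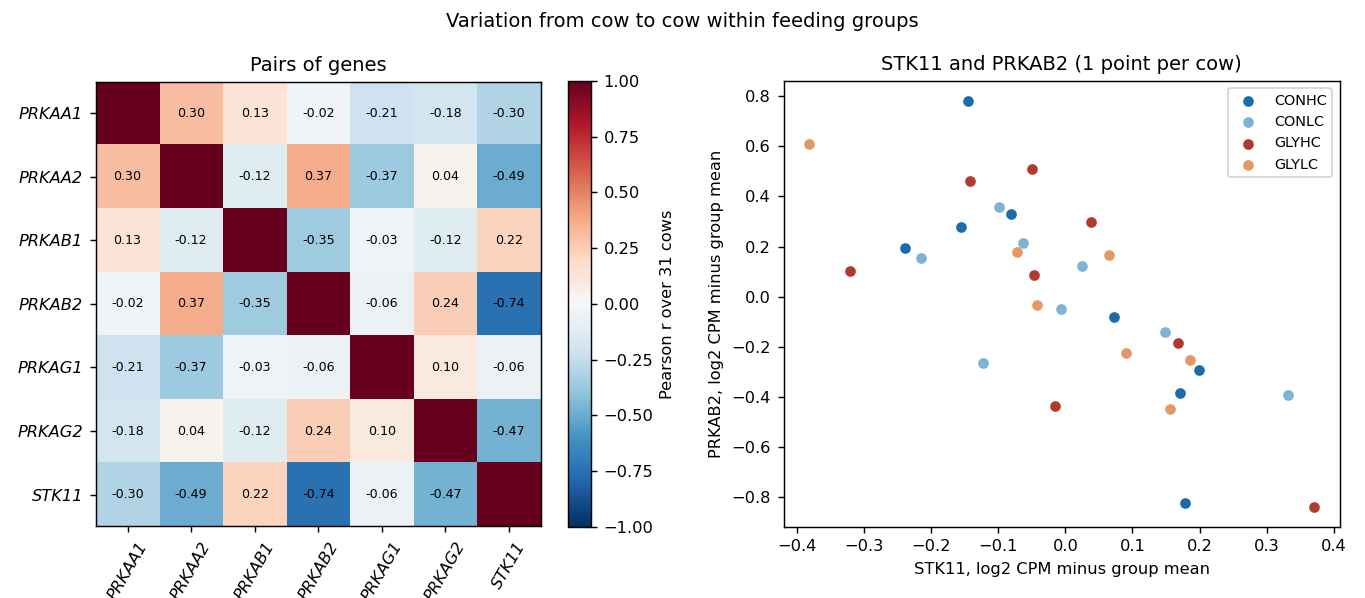
Left, Pearson r over 31 cows for each pair of the 7 genes (colour scale from -1 to 1), from log2 CPM centred on group means. Right, the centred log2 CPM of STK11 (horizontal) and PRKAB2 (vertical), 1 point per cow coloured by group: the points fall from upper left to lower right in all 4 groups (r = -0.74).

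These correlations moved with a part of the broad variation of the transcriptome. The third principal component of the centred values of 8660 genes, which held 8.99% of their variance, had r = 0.66 with STK11 and r = -0.63 with PRKAB2 (permutation p = 0.00021 and p = 0.00012, adjusted p = 0.000735 for both) and r = -0.60 with PRKAA2 (permutation p = 0.00184, adjusted p = 0.00429). Without the 2 farthest cows these values were 0.60, -0.55 and -0.51. With linear terms for the first 3 components, r for STK11 and PRKAB2 was -0.47 and no longer passed the threshold (permutation test, adjusted p = 0.0919), while PRKAA2 and PRKAG1 then passed with r = -0.55 (adjusted p = 0.0365). STK11 shared its pattern with many genes: 10.7% of genes had r above 0.5 with it and 8.48% had r below -0.5. Such breadth was not particular to STK11: the shares were 10.1% and 5.60% for PRKAA2 and 5.32% and 6.26% for PRKAB2. They were 1.32% and 0.196% for PRKAA1, 0.589% and 0.370% for PRKAB1, and 1.15% and 0.935% for PRKAG2. The shares for PRKAG1 were 0.243% and 0.0808%.

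The genes most like each member over the 31 cows were found in the same centred values, as a description. For STK11 these were OGFR (r = 0.84), a receptor for an opioid growth factor, and SH3TC1 (r = 0.83). PRKAA1 was most like MTERF1 (r = 0.73), a mitochondrial transcription termination factor, and ZNF148 (r = 0.69), a zinc finger factor, and PRKAA2 was most like HEATR5A (r = 0.86) and KLHL24 (r = 0.84). For the beta genes, PRKAB1 was closest to ATP6V0E1 (r = 0.66), a subunit of the vacuolar proton pump, and HMGB2 (r = 0.65), a chromatin protein, and PRKAB2 to CCDC186 and DNTTIP2 (r = 0.74 for both). PRKAG1 was closest to CSTF3 (r = 0.63), a cleavage factor of mRNA 3′ ends, and CLNS1A (r = 0.62), and PRKAG2 to POGZ and LEMD3 (r = 0.65 for both). Only genes with a symbol and a mean of at least 5 CPM were candidates, so PRKAB2, with a mean of 2.58 CPM, could not appear. No other member was among the 2 nearest genes of another.

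Around the complex, 65 further genes were listed by role, and 63 of them could be tested. BRSK2 was under the read filter and no row carried the symbol SIK1. In each of the 7 comparisons 0 of the 63 were called, in either direction, by edgeR. At an unadjusted p under 0.05 there were 8 of 63 for HC against LC over all cows, against 13.7% of all genes, and 5 of 63 for GLY against CON, against 3.92%. Between CONHC and CONLC there were 3 of 63, against 5.96% of all genes, and between GLYHC and GLYLC 9 of 63, against 12.5%. Between GLYHC and CONHC there was 1 of 63, against 2.92%, and between GLYLC and CONLC 5 of 63, against 5.65%. For the interaction there were 3 of 63, against 4.21%. DESeq2 on all cows called 1 of the 63 for HC against LC, AMPD2, and 0 in the other comparisons. AMPD2, PFKFB3 and ACACA were each called under some other setting, with values given beside theirs.

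The list of upstream kinases and partners held 17 tested genes, of which 11 were higher and 6 lower in HC cows (median log2 fold change 0.03 against -0.01 for all genes). STRADA and CAB39, which hold LKB1 in its active form, had 0.02 (-0.14 to 0.18) and 0.01 (-0.09 to 0.12) for HC minus LC. STRADB, the paralog of STRADA, was 0.18 (adjusted p = 0.270, edgeR). CAMKK2, a calcium-dependent kinase of the alpha subunit, was -0.03 (-0.21 to 0.15). FNIP1 and FLCN, partners of AMPK, had 0.19 and -0.02 for HC minus LC, and FLCN was 0.17 for GLY minus CON (adjusted p = 0.9999, edgeR). PPP2CB, a catalytic subunit of the phosphatase PP2A, was -0.09 for GLY minus CON (-0.18 to 0.00).

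Among the 10 tested AMPK-related kinases, which LKB1 also phosphorylates, 5 were higher and 5 lower in HC cows. MARK3, a kinase of microtubule-associated proteins, had -0.15 and NUAK1 had -0.35 (adjusted p = 0.238 and 0.325, edgeR). For NUAK1 the value was -0.62 between GLYHC and GLYLC (-1.08 to -0.16, adjusted p = 0.250, edgeR) and -0.10 between CONHC and CONLC (-0.55 to 0.35), and the interaction was -0.52 (-1.17 to 0.12). For GLY minus CON the list ran from -0.07 to 0.21, the upper end being NUAK2, and SNRK was 0.14 (-0.06 to 0.34).

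The 8 lipid substrates gave wider differences that were still not called. ACACA, the acetyl-CoA carboxylase that AMPK switches off to slow fatty acid synthesis, ranged from 23.4 to 43.1 CPM in CONHC, from 25.9 to 98.7 in CONLC, from 20.9 to 40.7 in GLYHC and from 18.3 to 66.8 in GLYLC. The highest cows were in the LC groups, as was the lowest, and the ranges overlapped. Its log2 fold change was -0.47 for HC minus LC (SE 0.17, adjusted p = 0.182, edgeR) and -0.33 for GLY minus CON (-0.67 to 0.01). Between CONHC and CONLC it was -0.65, which DESeq2 called when only these groups were fitted (adjusted p = 0.0912) and edgeR on all cows did not (adjusted p = 0.671). ACACB, the mitochondrial form of the enzyme, had 4 to 64 reads per cow and 0.43 for HC minus LC, whose 95% interval started at -0.14 and so included 0. SREBF2, the transcription factor of the cholesterol pathway, was -0.17 for GLY minus CON (-0.29 to -0.05, adjusted p = 0.921, edgeR).

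Of the 10 glucose substrates, PFKFB3, which makes the activator of phosphofructokinase, was 0.45 for HC minus LC (SE 0.15, adjusted p = 0.159, edgeR). It ranged from 4.92 to 11.8 CPM in CONHC against 3.86 to 8.53 in CONLC, and from 7.14 to 12.6 CPM in GLYHC against 4.32 to 13.6 in GLYLC, so the highest single cow was an LC cow. Without GLYLC cow 912, which carried the intestinal markers, it was 0.58 and was called (adjusted p = 0.0458, edgeR), and without that cow and the 4 cows with muscle markers it was 0.65 (adjusted p = 0.0606, edgeR). Its paralog PFKFB2 had -0.21 (-0.44 to 0.01). TXNIP, an inhibitor of glucose uptake, was -0.28 for GLY minus CON (adjusted p = 0.937, edgeR), and HDAC4, a histone deacetylase, was 0.28 (-0.01 to 0.56).

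The 11 growth and autophagy substrates had a median of 0.0032 for HC minus LC. TSC2 and RPTOR, through which AMPK restrains mTORC1, had 0.04 (-0.08 to 0.17) and 0.05 (-0.10 to 0.20), and ULK1, which starts autophagy, had 0.13 (-0.11 to 0.37). For ULK1 the treatments differed in sign, with -0.10 between CONHC and CONLC (-0.41 to 0.22) and 0.37 between GLYHC and GLYLC (0.04 to 0.70), and the interaction of 0.47 (0.01 to 0.92) was not called (adjusted p = 0.999, edgeR). MFF, a receptor for mitochondrial fission, was -0.19 (adjusted p = 0.170, edgeR), and FOXO3, a transcription factor of the fasting response, was 0.28 (adjusted p = 0.348, edgeR). For GLY minus CON, TFEB, which drives lysosomal genes, was 0.20 (adjusted p = 0.9999, edgeR), PIK3C3, a lipid kinase of autophagy, was 0.08 (-0.02 to 0.18), and TSC2 was 0.0034 (-0.13 to 0.13).

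Adenylate kinases and AMP deaminases set the AMP level that AMPK senses. All 7 tested genes of this list had a log2 fold change below 0 for HC minus LC, between -0.30 and -0.07 with a median of -0.11, against a median of -0.01 for all genes, of which 54.0% were below 0, and 0 of 7 were called. The signs were not alike in both treatments: 7 of 7 were below 0 between CONHC and CONLC and 3 of 7 between GLYHC and GLYLC. The list also holds AK1 and AMPD1, forms known from skeletal muscle, and both were chosen with their values known. AK1 was between 4.05 and 8.77 CPM in the 4 cows with muscle markers above 1000 CPM and at most 2.30 CPM in the other 27, and AMPD1 between 3.73 and 5.26 CPM against at most 1.22 CPM. Without these cows and cow 912, 5 of 7 genes were below 0 for HC minus LC. AMPD2, the AMP deaminase of liver, accounted for the lower end with -0.30 (-0.48 to -0.12, adjusted p = 0.114, edgeR). It ranged from 24.3 to 32.3 CPM in CONHC and from 27.3 to 42.6 in CONLC, and from 21.3 to 41.2 CPM in GLYHC and from 27.2 to 50.6 in GLYLC. The lowest cows were in the HC groups under both treatments, again with overlap. DESeq2 on all cows called AMPD2 at the same size (adjusted p = 0.0670), and edgeR called it in 6 of the 31 fits with 1 cow left out. Between CONHC and CONLC AMPD2 was -0.34 (-0.59 to -0.08, adjusted p = 0.718, edgeR), which DESeq2 called when only these groups were fitted (adjusted p = 0.0898). AK4, a mitochondrial adenylate kinase, was -0.11 (-0.52 to 0.31) for HC minus LC and -0.34 (-0.76 to 0.07) for GLY minus CON.

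**Figure D5:**
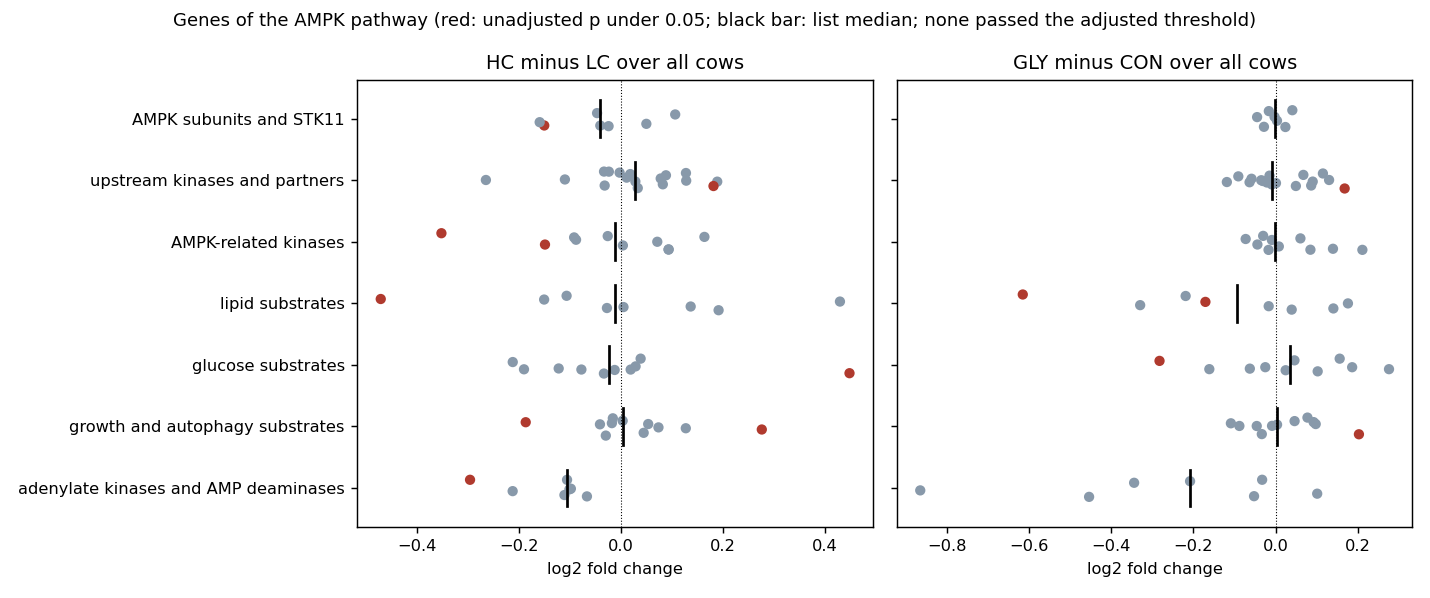
Log2 fold change by edgeR (horizontal axes, which differ in scale) of each tested gene by list, for HC minus LC over all cows (left) and GLY minus CON over all cows (right), with red points for an unadjusted p under 0.05 and a black bar for the list median. The 7 AMPK genes lie between -0.16 and 0.11 on the left and between -0.05 and 0.04 on the right.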

How the data were processed

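Liver RNA of 31 cows was sequenced from stranded mRNA libraries. Per the submitters' processing notes, FastQC, Trim Galore, HISAT2 2.1.0 (genome UMD3.1) and HTSeq 0.8.0 were used, and the authors deposited the resulting raw counts, 24616 genes in all. Whether HTSeq used strand is not given in the sources used here, so reads of overlapping antisense genes may not be separated. The deposited normalized table was not used.

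Groups came from the sample labels, which give each cow its own number. No 2 cows of a group differed by sampling noise alone (chi-square per gene between 24.5 and 487 over 105 pairs). Each cow is 1 library, and the edgeR and DESeq2 p-values set differences against the spread between cows. Those of correlations come from permuting cows within groups. Genes with at least 20 reads in all (15916) were fitted in edgeR 4.0.16 (R 4.3.3) with TMM scaling and the quasi-likelihood test on all cows. The 4 groups gave 4 contrasts and the interaction, and additive models gave HC minus LC with treatment and GLY minus CON with CFP as covariate. GLY and CON comparisons share groups with the diet comparisons and are given side by side. Intervals are 95% intervals of log2 fold changes. Log2 CPM used a prior count of 2. Correlations and figures were made in Python 3.11.15 (numpy 2.4.6, scipy 1.17.1, matplotlib 3.10.9). The scripts were tested on simulated data.

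The genes and lists were chosen with earlier results of these data known. From each list every called gene, the 2 genes with the lowest p in HC minus LC and in GLY minus CON, and fixed genes (among them STRADA, CAB39, CAMKK2, PRKAG3, ACACA, ACACB, TSC2, RPTOR and ULK1) were named, with the 2 genes most correlated with each member. Of the genes this rule names, 2 are not reported here. Alternatives were RLE and upper-quartile scaling, no filter, filterByExpr with a minimum of 10 reads, DESeq2 1.42.0 on all cows or on the compared groups, edgeR on the compared groups, each cow left out in turn, a term for total reads, and medians of the paralog ratios. Leaving out the cows with muscle or intestinal markers and removing 3 principal components were added after seeing the data. No sequences or transcript lengths were used.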

Additional observations from a re-analysis of the deposited data

Results flagged for a closer look

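In PRKAG1, 1 cow stood apart from the rest of its group in CONLC and 1 in GLYLC. CONLC cow 260 had 21.7 CPM, where the next cow had 24.8 CPM and the highest 27.1 CPM, and GLYLC cow 544 had 20.7 CPM, where the next had 24.1 CPM and the highest 26.4 CPM. In both the gap to the nearest cow was above Dixon's critical value. With 28 groups of values examined, chance alone marks about 1 in 20. Cow 544 also had the highest sum of adipocyte markers of all cows, 57.9 CPM. Cow 260 had the highest sum of bile duct markers (4 of 5 found), 63.3 CPM, of which EPCAM alone made up 50.8 CPM. The highest values of KRT7 (6.11 CPM) and KRT19 (20.1 CPM) were in CONHC and GLYLC cows. The part of these cell types in the PRKAG1 values was not tested.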

How the results depend on the processing

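No member was called under the 39 alternatives run for each of the 4 comparisons of groups or the 37 run for each of the other 3 comparisons, and of 1869 recomputed log2 fold changes of the members 1782 kept their sign. The other 87 belonged to values of at most 0.07 in size. PRKAA1 for HC minus LC stayed between -0.18 and -0.13 and kept an unadjusted p under 0.05 in 37 of 37 alternatives, with a smallest adjusted p of 0.182. Of the 63 other pathway genes, 0 were called for HC minus LC, but 1 with DESeq2 on all cows (AMPD2), 1 without the cows with muscle or intestinal markers, called marker cows here (PFKFB3), and 0 to 1 with 1 cow left out: AMPD2 without CONLC cow 169 or 260, GLYHC cow 37 or 117, or GLYLC cow 102 or 544, and PFKFB3 without GLYLC cow 912. For CONHC against CONLC, DESeq2 on the compared groups called 2 of them (AMPD2 and ACACA) in place of 0. Of 8003 recomputed values of the named pathway genes, 7731 kept their sign. Counts over all genes moved more. For HC minus LC, 231 genes were called, 434 with DESeq2 on all cows, 134 without a filter, 42 without the marker cows, and between 83 (without GLYHC cow 32) and 404 (without CONLC cow 169) with 1 cow left out. For GLYHC against GLYLC, 32 were called, 143 with DESeq2 on all cows, 87 with DESeq2 and 0 with edgeR on the compared groups, 66 with RLE, 11 with filterByExpr, 1 without the marker cows, and between 0 (without GLYHC cow 154 or GLYLC cow 912) and 150 (without GLYLC cow 147) with 1 cow left out. For CONHC against CONLC the count was 0, 27 with DESeq2 on all cows, 81 with DESeq2 on the compared groups, 3 without the marker cows and at most 7 with 1 cow left out. For GLYLC against CONLC it was 10, 4 and 2 with DESeq2, 0 with filterByExpr, with edgeR on the compared groups or without the marker cows, and 0 to 41 with 1 cow left out. For GLYHC against CONHC it was 0, 5 with DESeq2 on the compared groups, and at most 1 with 1 cow left out. For GLY minus CON it was 0, 1 with DESeq2 and at most 6 with 1 cow left out, and for the interaction 0 and 1. The cause was not tested. The number of correlated pairs was 1 in each setting, but a different pair once 3 components were removed. No paired analysis was possible because the groups share no cow numbers. Depth limits PRKAB2 most, with 14 reads in its lowest cow.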
